A study of Mus musculus with 9 samples.

Results

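Genes that mark the stages of natural killer (NK) cell maturation were followed across 9 Affymetrix arrays. The set was given by name and holds 7 genes: Klrg1, Spn, Zeb2, Prdm1 and Lgals1, grouped here as late stage genes, and Cd27 and Tcf7, grouped as early stage genes. In the array annotation used here 6 of the 7 had probe sets that carry their symbol alone, 12 probe sets in all, out of 18193 genes with such a probe set. No probe set was listed under Tcf7, which was not analysed here. All 6 measured genes lay above the filter on low values and were tested among 10916 genes.

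The RNA came from conventional dendritic cells (CDC), NK cells and interferon-producing killer dendritic cells (IKDC), a population described by the markers it shares with NK cells and dendritic cells. All were sorted fresh from naive BALB/c mice 6 to 8 weeks old, with no treatment named. Spleen gave 2 arrays for each of the 3 cell types and lymph node gave 1 for each, so each lymph node group is a lone array. The surface markers of the sorts and the number of mice pooled for an array are not given in the sources used here.

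NK cells leave the bone marrow as CD27-positive cells and, as they mature in the periphery, gain CD11b, lose CD27 and take up KLRG1 and CD43, the products of Klrg1 and Spn. The transcription factors ZEB2, encoded by Zeb2, and Blimp-1, encoded by Prdm1, act with T-bet in the late steps, whereas TCF-1, the product of Tcf7, belongs to the early steps. KLRG1 is an inhibitory receptor for cadherins, CD43 a heavily glycosylated surface protein, CD27 a costimulatory receptor of the TNF receptor family, and galectin-1, the product of Lgals1, a lectin that binds sugars on surface proteins.

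ZEB2 is a repressor that binds E-box letters, T-bet binds T-box letters and TCF-1 binds TCF/LEF letters, so the upstream sequences of the set were searched for these motifs. RefSeq windows of 250 bases before a transcription start, build GRCm38.p6, were at hand for 5 of the 7 genes, 9 windows in all. Shown are the stretch before the outermost Zeb2 start, because ZEB2 is the member that binds E-box letters, the stretch before the outermost Cd27 start, because Cd27 is the early gene measured, and the single motif match found. All are 5′ to 3′ on the minus strand, and capitals mark the match.
Zeb2, chr2:45117443-45117692: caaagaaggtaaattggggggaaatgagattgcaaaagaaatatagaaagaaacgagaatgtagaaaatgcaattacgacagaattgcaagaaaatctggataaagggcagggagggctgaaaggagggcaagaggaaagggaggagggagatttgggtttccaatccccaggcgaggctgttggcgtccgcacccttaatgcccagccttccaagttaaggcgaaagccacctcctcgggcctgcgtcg
Cd27, chr6:125237137-125237277: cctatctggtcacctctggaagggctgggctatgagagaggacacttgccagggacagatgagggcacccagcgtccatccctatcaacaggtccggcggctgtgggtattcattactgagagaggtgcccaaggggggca
Prdm1, chr10:44458818-44458847: ggctgggctggcCAGGTGcggccacgcccc

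The E-box letters CACCTG or CAGGTG stood once in the Prdm1 window, and 17.2% of all 32851 windows hold them. The T-box letters AGGTGTGA or TCACACCT, held by 1.12% of windows, and the TCF/LEF letters CTTTGA or TCAAAG, held by 13.8%, were in none of the 9 windows. CAGGTG and AGGTGTGA share the letters AGGTG, so matches to these motifs can overlap. A match describes letters and is not a binding site.

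The arrays differed in ways that their labels do not explain. Xist, an X-linked RNA that silences an X chromosome, read 6.02 to 6.36 on spleen arrays 1 and 11.43 to 12.49 on all others. Eif2s3y, a Y-linked gene, read 8.84 to 9.40 on spleen arrays 1 and 2.76 to 4.28 on all others. By these genes spleen arrays 1 read as male and spleen arrays 2 and all lymph node arrays as female. Sex and spleen array number therefore cannot be told apart, and lymph node against spleen sets female arrays against a mixture. Mki67, a marker of dividing cells, read 10.97 to 11.91 on spleen arrays 1 and 8.63 to 9.86 on the rest. The 2 spleen IKDC arrays differed by more than 2-fold in 19.6% of tested genes, against 8.22% for CDC and 8.25% for NK. Over 9 NK markers with a probe set, such as Ncr1 and Klrk1, the mean level was 11.04 to 11.20 on the NK arrays, 10.56 to 10.99 on the IKDC arrays and 6.62 to 7.20 on the CDC arrays. Over 9 conventional dendritic cell markers it was 6.56 and 5.51 on spleen NK arrays 1 and 2, and 6.87 and 6.91 on spleen IKDC. Itgax read 11.32 and 7.27 on those NK arrays and H2-Aa 10.89 and 6.62, against 11.03 and 11.24, and 12.01 and 10.90, on spleen IKDC. Batf3 stayed low on the NK arrays, at 5.70 and 4.90. The part of this in the IKDC minus NK differences was not tested. Levels are log2 normalized intensities throughout, and differences are on that log2 scale with the standard error of limma's fit. In bulk RNA, fewer cells of a type and less RNA per cell cannot be told apart.

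The set stood higher in NK cells than in CDC. All 6 were called higher in spleen NK than in spleen CDC by limma, with an adjusted p under 0.05, where 6.54% of all tested genes were called higher. Their median difference was 3.68, compared with 0.06 over all genes. Klrg1 read 12.19 and 12.33 on spleen NK arrays 1 and 2 and 7.10 and 6.51 on the CDC arrays, a 43.9-fold difference (5.45 ± 0.27 SE, limma adjusted p = 0.00058, rank 4 of 10916 genes by p-value). The NK and CDC arrays lay far apart with little spread within either.

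Cd27 read 9.33 and 7.94 on the spleen NK arrays and 4.75 and 3.20 on the CDC arrays. On all 3 CDC arrays it lay below 5.31, the filter level that stands near background, so the difference is at least 10.0-fold (limma adjusted p = 0.00503). Prdm1 had a mean of 9.05 ± 1.21 in NK and 5.28 ± 0.13 in CDC (SD, n = 2 each), at least 13.4-fold apart (limma adjusted p = 0.0271). This call was lost without CDC array 1 (adjusted p = 0.139), without CDC array 2 (0.146) and without NK array 2 (0.155). The remaining members were 4.85-fold (Zeb2), 7.71-fold (Lgals1) and 12.1-fold (Spn) higher, with adjusted p of 0.00331, 0.00559 and 0.00332 in the same limma fit. Of the 5 Zeb2 probe sets, 1456389_at (adjusted p = 0.239) and 1458941_at (0.0752) missed the threshold when every probe set was fitted alone, as did Spn 1422133_at (0.101).

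IKDC showed the same genes above CDC, with 4 of 6 called higher where 4.75% of all tested genes were. Cd27 was at 8.94 ± 0.05 in spleen IKDC and 3.98 ± 1.09 in CDC (SD, n = 2 each), at least 12.4-fold higher (limma adjusted p = 0.00507). Klrg1 was 20.4-fold higher (4.35 ± 0.27 SE, limma adjusted p = 0.00129), Spn 9.21-fold (adjusted p = 0.00645) and Lgals1 6.44-fold (0.00978). The Spn call was lost without CDC array 2 (adjusted p = 0.0681), with the mean of its 2 probe sets (0.0503) and with 1422133_at alone (0.465).

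The transcription factors were the members not called between IKDC and CDC. Zeb2 was at 8.99 ± 0.15 in spleen IKDC and 7.99 ± 0.10 in CDC, a difference of 1.00 ± 0.27 SE (limma adjusted p = 0.073). Prdm1 was at 7.97 ± 1.51 and 5.28 ± 0.13, a difference of 2.69 ± 0.80 SE (limma adjusted p = 0.0946). Both were called with the replicate number as a block (adjusted p = 0.0343 and 0.00936), and Prdm1 was called without IKDC array 1 (0.0163). Both comparisons use the same CDC arrays.

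**Figure D1:**
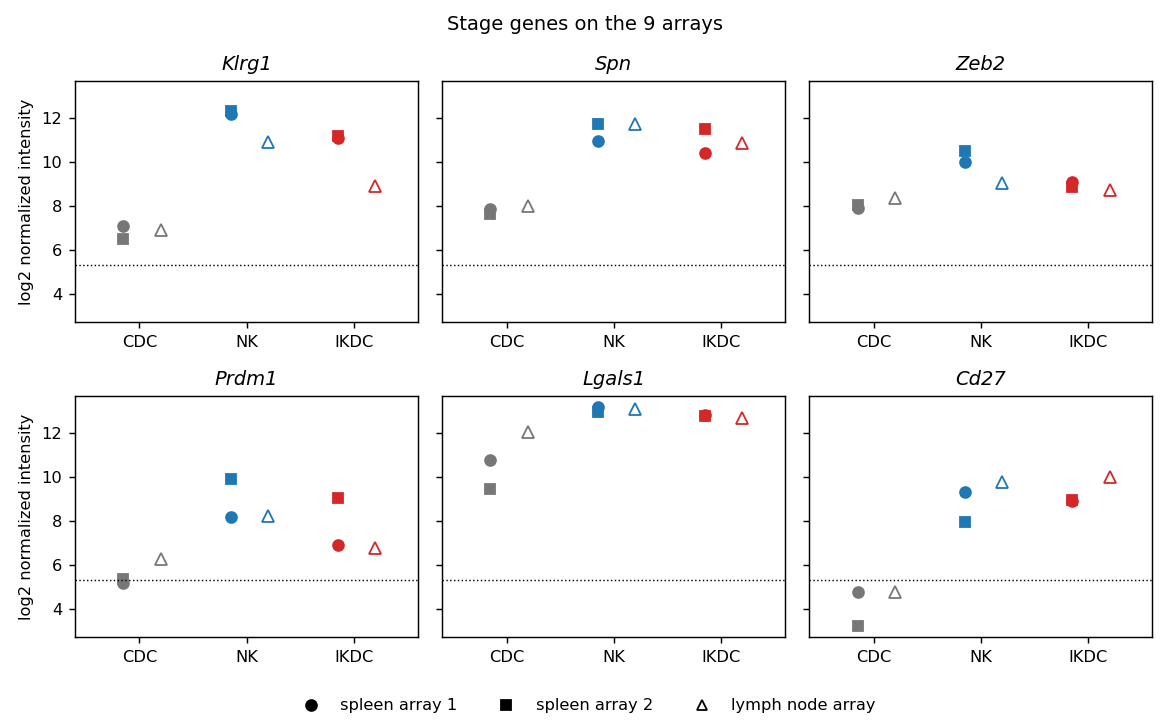
Log2 normalized intensity (vertical axis) of the 6 measured members in CDC, NK and IKDC, with filled points for spleen arrays 1 (circles) and 2 (squares), open triangles for the lone lymph node arrays and a dotted line at the filter level of 5.31. Klrg1 runs from spleen NK (12.19 and 12.33) down to lymph node IKDC (8.90), and Cd27 is highest on the 2 lymph node arrays of NK and IKDC (9.76 and 10.00).

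Whether IKDC carry the stage genes at the level of NK cells was asked in spleen and lymph node. The late stage genes read lower in IKDC in every matched pair of arrays, that is spleen arrays 1, spleen arrays 2 and the lymph node arrays. This held for 5 of 5 late stage genes, where 17.1% of all tested genes were lower in all 3 pairs. Over their 11 probe sets it held for 8. The members were chosen with earlier results of these data known, so these counts are descriptions. The mean of 9 NK markers was also lower in IKDC in each pair, at 10.56 against 11.10, 10.99 against 11.20 and 10.74 against 11.04. Among these markers Cd244a and Il2rb were higher in IKDC between spleen arrays 2 (11.53 against 10.97 and 11.57 against 10.32). No member passed the test between spleen IKDC and NK, where limma called 0% of tested genes and 598 had an unadjusted p under 0.05.

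Klrg1 differed by nearly the same amount in both spleen pairs and by more in lymph node. It read 11.10 and 11.20 on spleen IKDC arrays 1 and 2, against 12.19 and 12.33 on the NK arrays, and 8.90 against 10.92 in lymph node. The spleen arrays of IKDC and NK did not overlap, with IKDC below NK as in 19% of tested genes, but the lymph node NK array lay below both spleen IKDC arrays. The pair differences were -1.08, -1.13 and -2.01. In limma the spleen difference was -1.11 ± 0.27 SE (95% confidence interval -1.77 to -0.45, adjusted p = 0.857, rank 44 of 10916 by p-value).

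In lymph node the Klrg1 difference was a 4.04-fold lower level in IKDC (-2.01 ± 0.39 SE, limma adjusted p = 0.269), where 0.055% of tested genes were called. Averaged over both organs it was -1.56 ± 0.24 SE (limma adjusted p = 0.154, rank 31, 0.00916% of genes called). The interaction of organ and cell type was -0.91 ± 0.47 SE (limma adjusted p = 1, 0% of genes called). Beside the low Klrg1 value on the lymph node IKDC array, the mean of the NK markers there was 10.74 against 11.04 on the lymph node NK array, and that of 9 conventional dendritic cell markers was 7.09 against 6.03. On the spleen IKDC arrays the mean of the dendritic cell markers was 6.87 and 6.91. Flt3, a dendritic cell growth factor receptor in that list, read 8.69 on the lymph node IKDC array and 5.22 to 6.13 on the other NK and IKDC arrays. It was the 1 marker of 9 above both spleen IKDC arrays, with 3 below both and 5 between. Zbtb46, Cd86 and Xcr1 read lower on the lymph node IKDC array than on the lymph node NK array. The part of dendritic cells in the Klrg1 difference was not tested.

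Zeb2, whose upstream sequence is given above, read lower in IKDC in spleen. Its most intense probe set read 9.10 and 8.89 on the spleen IKDC arrays and 10.02 and 10.52 on the NK arrays, so here too both IKDC arrays lay below both NK arrays. The difference was -1.27 ± 0.27 SE (95% confidence interval -1.93 to -0.61, limma adjusted p = 0.857, rank 21 of 10916), with -0.92 between arrays 1 and -1.63 between arrays 2. Of its 5 probe sets, 4 were lower in both spleen pairs, and the dimmest, 1456389_at, differed by -0.34 and 0.01.

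In lymph node Zeb2 read 8.76 in IKDC and 9.07 in NK, a difference of -0.31 ± 0.39 SE (limma adjusted p = 1). The other 4 probe sets there differed by 0.04, 0.04, -0.13 and -0.37. The lymph node difference minus the spleen difference was 0.97 ± 0.47 SE (limma adjusted p = 1), so a smaller difference in lymph node was not shown.

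Prdm1 split by replicate number as well as by cell type. Arrays 1 and 2 of spleen NK gave 8.19 and 9.90, those of spleen IKDC 6.90 and 9.04, and lymph node gave 8.23 for NK and 6.79 for IKDC. The groups overlap, since IKDC array 2 lies above NK array 1, while within each number IKDC was lower. The pair differences were -1.29, -0.87 and -1.44, and the spleen difference was -1.08 ± 0.80 SE (limma adjusted p = 0.867, and 0.429 with the replicate block). That difference rested on which arrays were taken: it was -1.93 without NK array 1, -0.22 without NK array 2, -0.012 without IKDC array 1 and -2.15 without IKDC array 2. Spleen array 2 minus array 1 was 1.71 in NK, 2.13 in IKDC and 0.19 in CDC, with no test. The macrophage and monocyte marker mean was also higher on arrays 2, at 7.53 against 5.56 in NK and 7.73 against 6.75 in IKDC. In CDC that mean was 7.95 against 7.49. The ratio of 3′ to 5′ actin signal was lower on arrays 2, at 1.62 against 2.35 in NK and 1.24 against 3.23 in IKDC. In CDC that ratio was 1.11 against 1.69. Xist, Eif2s3y and Mki67 differed by array number as well. The part of any of these in the Prdm1 values was not tested.

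Spn and Lgals1 lay closer together in the 2 cell types. For Spn, spleen NK gave 10.97 and 11.75, spleen IKDC 10.41 and 11.51, and lymph node 11.72 for NK and 10.89 for IKDC, so the spleen groups overlapped. Its spleen difference was -0.40 ± 0.43 SE (limma adjusted p = 0.898). The dimmer probe set 1422133_at gave larger pair differences of -0.89, -1.25 and -1.41 than the -0.56, -0.24 and -0.84 of 1439034_at.

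Lgals1 was among the most intense genes, above 99.5% of genes by its mean. In the order spleen 1, spleen 2 and lymph node, NK gave 13.20, 12.96 and 13.09, and IKDC gave 12.85, 12.79 and 12.70. All 3 IKDC arrays lay below all 3 NK arrays, as in 5.08% of tested genes, though the spleen difference was -0.26 ± 0.41 SE (limma adjusted p = 0.93). Its second probe set gave -0.71, -1.37 and -0.53.

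Cd27 was the member whose pairs pointed both ways. Spleen NK gave 9.33 and 7.94, spleen IKDC gave 8.90 and 8.97, and the lymph node arrays gave 9.76 for NK and 10.00 for IKDC. The pair differences were -0.43, 1.04 and 0.24, and the spread between the NK arrays covered both IKDC arrays. The spleen difference was 0.30 ± 0.63 SE (95% confidence interval -1.21 to 1.81, limma adjusted p = 0.946), and without NK array 2 it was -0.39.

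**Figure D2:**
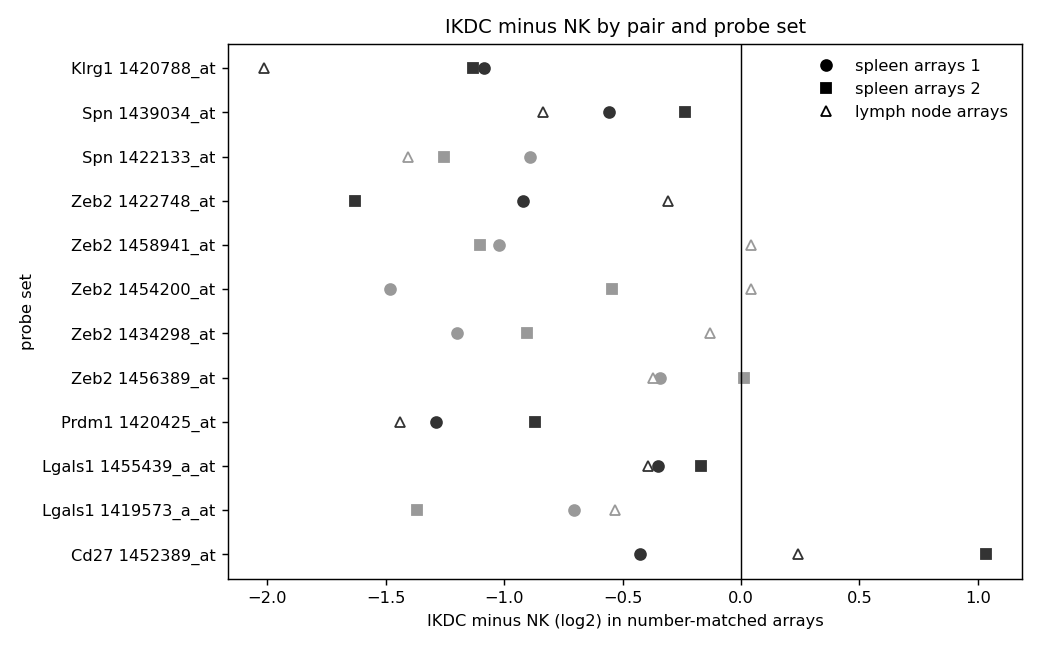
IKDC minus NK on the log2 scale (horizontal axis) for the 12 member probe sets (vertical axis) in spleen arrays 1 (circles), spleen arrays 2 (squares) and the lymph node arrays (open triangles), with the probe set used for each gene in black and the others in grey. Of the 11 late stage probe sets, 8 lie below 0 in all 3 pairs, and Cd27 runs from -0.43 to 1.04.

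Lymph node was compared with spleen within each cell type. Klrg1 was lower in lymph node in both NK and IKDC, and Cd27 read higher there in both. No member was called by limma in IKDC or NK, where 0% of tested genes were called and 744 and 628 had an unadjusted p under 0.05, nor in CDC, where 0.0275% were.

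The lymph node IKDC array read 8.90 for Klrg1, below the spleen arrays at 11.10 and 11.20. That is 4.75-fold lower (-2.25 ± 0.34 SE, limma adjusted p = 0.0973, rank 43), and the array lay below both spleen arrays as in 30.1% of genes. In NK the lymph node array at 10.92 lay 2.53-fold below spleen (-1.34 ± 0.34 SE, limma adjusted p = 0.648), where 39.9% of genes lay below both. In CDC the gene differed by 0.12 ± 0.34 SE (limma adjusted p = 0.919), around a low level of 6.51 to 7.10.

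Averaged over the 3 cell types, Klrg1 was lower in lymph node by -1.16 ± 0.19 SE (limma adjusted p = 0.0714, where 0.376% of genes were called). With an offset of 50 in place of 6.49 it was -1.13 and called (adjusted p = 0.0454). Against spleen arrays 1 alone the difference was -1.21 and against spleen arrays 2 alone -1.10. The organ effect in IKDC minus that in CDC was -2.37 ± 0.47 SE (limma adjusted p = 0.405, 0% of genes called, 615 with an unadjusted p under 0.05), a contrast added after the data were seen.

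Cd27 read 9.76 on the lymph node NK array against 9.33 and 7.94 in spleen, and 10.00 on the IKDC array against 8.90 and 8.97. It lay above both spleen arrays in each, as 31.5% of genes did in NK and 30.5% in IKDC. The differences were 1.13 ± 0.77 SE in NK (limma adjusted p = 0.943) and 1.06 ± 0.77 SE in IKDC (0.866). In CDC all 3 arrays lay below the filter level, so no organ difference is read there.

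CD27 is also made by T cells. Over 12 T cell markers the mean level was 5.88 and 5.95 on the spleen NK arrays, 6.15 and 6.37 on the spleen IKDC arrays, 7.45 on the lymph node NK array and 6.90 on the lymph node IKDC array. Cd3e, a chain of the T cell receptor complex, read 8.15 on the lymph node NK array and 4.08 to 5.85 on every other. On the lymph node NK array 11 of the 12 markers lay above both spleen NK arrays and 1 below both. On the lymph node IKDC array 5 lay above both spleen IKDC arrays, 5 below both, Cd3e among them at 4.19, and 2 between. The markers farthest above were Cd4, at 9.30 against 4.18 and 5.09, and Cd8b1, a CD8 chain, at 8.78 against 3.33 and 4.24. Cd4 also read 8.02 to 9.90 on the CDC arrays. Genes outside the T cell list were high on the lymph node IKDC array too, such as Flt3 (8.69 against 6.13 and 5.75). Mzb1, from the plasma cell list, read 9.22 there against 5.84 and 6.02. Of the 6 markers in that list, 4 lay above both spleen IKDC arrays and 2 below both. Irf4 was among those below, at 6.37 against 6.85 and 7.33. Below the filter level were 1 of 12 T cell markers on the lymph node NK array and 2 on the lymph node IKDC array. On the spleen NK and IKDC arrays 3 to 6 were below it. The part of T cells or of other cells in the Cd27 values was not tested.

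Zeb2 was lower in lymph node NK, at 9.07 against 10.02 and 10.52 in spleen (-1.20 ± 0.34 SE, limma adjusted p = 0.756), and differed by -0.23 ± 0.34 SE in IKDC (0.954). Lgals1 differed between organs chiefly in CDC, where the lymph node array read 12.07 and the spleen arrays 10.79 and 9.47 (1.94 ± 0.50 SE, limma adjusted p = 0.23, with 36.9% of genes above both spleen arrays), while in NK and IKDC it differed by 0.01 and -0.12. The sign in NK turned to -0.41 without quantile normalization. Over 10 macrophage and monocyte markers the mean was 8.41 on the lymph node CDC array and 7.49 and 7.95 on the spleen CDC arrays. Of these markers 6 lay above both spleen CDC arrays, 2 below both and 2 between. Their part in the Lgals1 value was not tested.

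**Figure D3:**
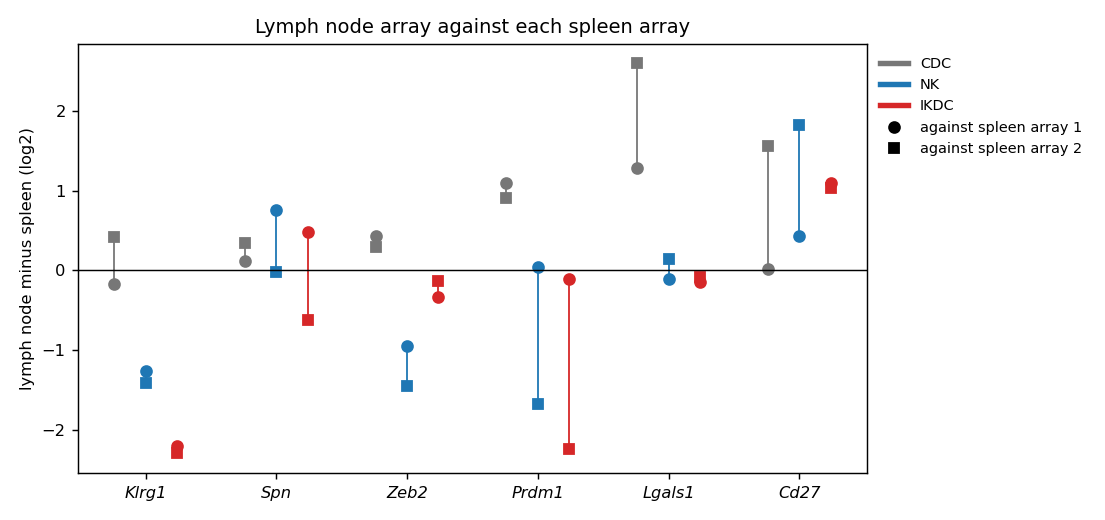
Lymph node minus spleen on the log2 scale (vertical axis) for the 6 members, with the lone lymph node array set against spleen array 1 (circles) and spleen array 2 (squares) in CDC (grey), NK (blue) and IKDC (red). Klrg1 lies below 0 against both spleen arrays in NK (-1.27 and -1.41) and IKDC (-2.20 and -2.30), and Prdm1 in IKDC depends on the spleen array (-0.11 and -2.25). The CDC points of Cd27 come from arrays below the filter level.

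Ordered by level, Klrg1 ran from spleen NK (12.26) to spleen IKDC (11.15), lymph node NK (10.92), lymph node IKDC (8.90), lymph node CDC (6.93) and spleen CDC (6.80). Spleen IKDC and lymph node NK differed by 0.23 and the CDC groups by 0.12, each less than the standard error of 0.34 for a difference between a lymph node and a spleen group. Cd27 ran from lymph node IKDC (10.00) to lymph node NK (9.76), spleen IKDC (8.94), spleen NK (8.63), lymph node CDC (4.77) and spleen CDC (3.98), the CDC groups being near background, and no neighbouring groups among NK and IKDC were further apart than 0.83, close to the standard error of 0.77. Zeb2 set spleen NK (10.27) 1.20 above lymph node NK (9.07), with the other 4 groups from 7.99 to 8.99. Prdm1 was highest in spleen NK (9.05) and lowest in spleen CDC (5.28), and its NK and IKDC groups overlapped across replicates. Spn and Lgals1 placed all NK and IKDC groups above all CDC groups. Among the NK and IKDC groups Spn ran from 10.89 to 11.72 and Lgals1 from 12.70 to 13.09, with neighbouring groups at most 0.40 and 0.26 apart.

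Other genes of the same maturation course were read from written lists of late stage genes, early stage genes and regulators. The lists were chosen with earlier results of these data known, so their counts beside all genes are descriptions. None of their members was called between IKDC and NK in either organ. Of 18 other late stage genes tested, 14 were lower in IKDC in all 3 pairs and 0 were higher, against 17.1% and 15.7% of all tested genes. Prf1 and Gzma of this list are also among the NK markers. Ncr1, Klrk1 and Klre1, NK markers outside the list, were lower in all 3 pairs too, so lower readings were not confined to late stage genes. Cma1, a mast cell type protease also made by NK cells, was at 7.76 in spleen IKDC and 10.08 in NK (-2.32 ± 0.53 SE, limma adjusted p = 0.857) and -2.44 in the lymph node pair. Itgam, which encodes CD11b, gave -2.18 and -1.58 in the spleen pairs, and in lymph node, where its IKDC value of 5.16 lay below the filter level, it was at least 4.54-fold lower. Fgl2, a secreted immune regulator, gave -1.05, -1.02 and -2.16. The list medians were -0.59, -0.53 and -0.82, compared with -0.03, -0.01 and 0.01 over all genes. Irf8, a transcription factor shared with dendritic cells, was -0.56 and -0.50 in spleen and 1.37 in lymph node.

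Of 18 other early stage genes tested, 4 were higher in IKDC in all 3 pairs and 3 were lower. Both counts are near the 15.7% and 17.1% of all tested genes. Kit, the stem cell factor receptor, was higher by 0.64, 1.61 and 1.19, and the chemokine receptor gene Cxcr3 by 0.56, 1.43 and 0.03. In spleen Kit read 9.54 and 9.51 on the IKDC arrays and 10.46 and 11.17 on the CDC arrays. In lymph node it read 9.91 in IKDC and 9.77 in CDC. Lef1, which encodes a partner factor of TCF-1, gave -0.99, -0.05 and -0.90. The list medians were 0.28, 0.27 and -0.15. Il7r, the interleukin 7 receptor, was higher in lymph node than in spleen by 2.93 in NK, 1.57 in IKDC and 2.15 in CDC (each ± 0.57 SE). None of these differences was called. Cd3e read 8.15 on the lymph node NK array, 4.19 on the lymph node IKDC array and 4.88 on the lymph node CDC array. The part of T cells in the Il7r values was not tested.

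Of 22 regulators, 5 were lower in IKDC in all 3 pairs and 2 were higher, counts near the 17.1% and 15.7% of all tested genes. Tbx21, the gene for T-bet, gave -0.30, 0.16 and -0.89, and Eomes, its relative, gave -0.41, 0.04 and 0.17. Mef2c, a factor of B cells and dendritic cells, was higher in IKDC by 1.14, 1.46 and 2.63, with no overlap between the 3 IKDC and 3 NK arrays, as in 4.83% of genes (limma adjusted p = 0.102 over both organs). Against CDC, 10 of 22 regulators were called higher and 1 lower in spleen IKDC, where 4.75% of all tested genes were called higher, and 9 higher and 2 lower in spleen NK, where 6.54% were called higher.

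**Figure D4:**
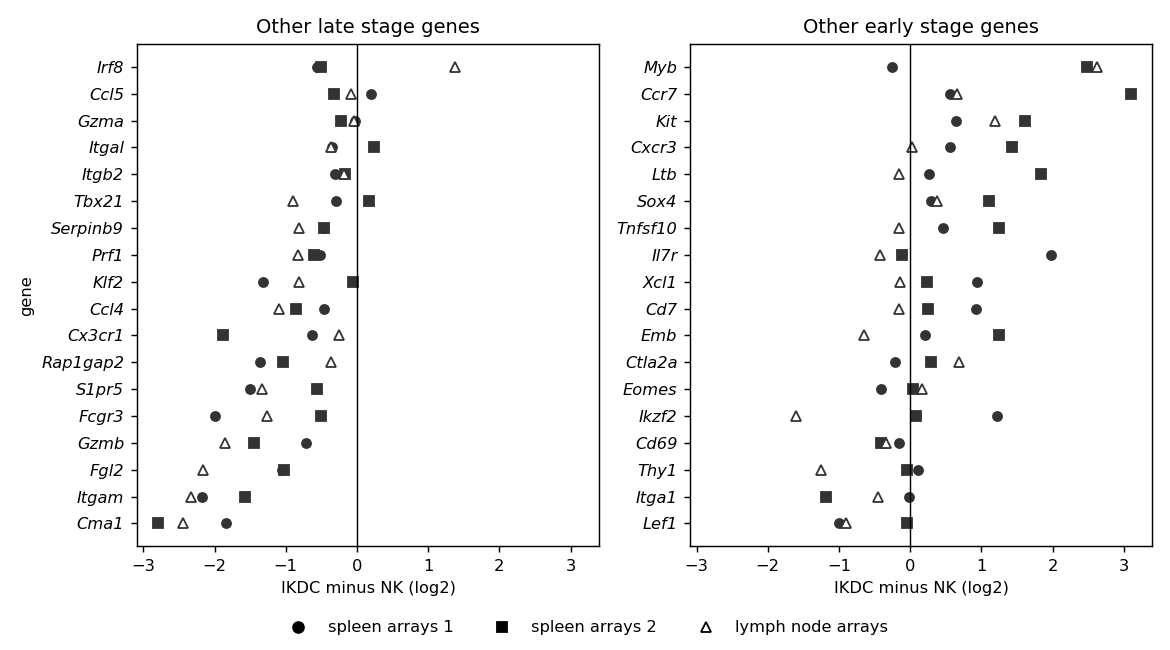
IKDC minus NK on the log2 scale (horizontal axis) for the 18 other late stage genes (left) and 18 other early stage genes (right), by gene (vertical axis), in spleen arrays 1 (circles), spleen arrays 2 (squares) and the lymph node arrays (open triangles). On the left 14 genes lie below 0 in all 3 pairs, and on the right 3 do.

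Among the members, the correlation across arrays changed with the arrays taken. Over the 9 arrays Klrg1 and Cd27 had a Pearson r of 0.812, both being low in CDC, and over the 6 NK and IKDC arrays it was -0.731. Klrg1 and Zeb2 had 0.893 and 0.796, and Spn and Prdm1 0.888 and 0.826. Arrays of an organ or replicate number may share a source, which the labels do not state, so these values are descriptions.

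The genes most like each member are named by Pearson r over the same arrays. For Klrg1 over 9 arrays they were Rhbdl1 (0.994), Impdh1 (0.991) and Ifng (0.985), and over the 6 NK and IKDC arrays Slfn9 (0.998), Plk3 (0.995) and Ifng (0.993). For Cd27 they were Taf1 (0.993), Ggnbp2 (0.992) and Grk6 (0.99) over 9 arrays, with Grk6 (0.993) again among the closest over 6. Spn lay nearest Gata3 (0.997), Lef1 (0.991) and Il18rap (0.991) over 9 arrays, Prdm1 nearest Stat6 (0.983), Serpinb9b (0.982) and Fer (0.982), Zeb2 nearest Myl6b (0.978), Dyrk1a (0.956) and Mknk2 (0.955), and Lgals1 nearest Foxp1 (0.991), Sbk1 (0.987) and Klhdc2 (0.984). With so few arrays high values can be common, though this differed by member. The share of genes with an r above 0.95 ran from 0.0366% (Zeb2) to 1.97% (Spn) over 9 arrays. Over 6 arrays it ran from 0.055% (Lgals1) to 0.605% (Prdm1).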

How the data were processed

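The authors deposited linear signal intensity for 45101 probe sets on 9 arrays, made per the labels' protocols from 6 µg of total RNA. Each array had been scaled to a common trimmed mean of 150.0, and the sources used here do not name the software. After leaving out 64 control probe sets, an offset of 6.49, the 20th percentile of the intensities, was added, log2 was taken and arrays were quantile normalized. Each gene was represented by its single-symbol probe set with the highest mean, and 10916 genes whose mean reached 5.31, the 40th percentile over genes, were tested. Of the other probe sets, 932 had several symbols and 9160 none listed.

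Tests used limma 3.58.1 in R 4.3.3 (lmFit, eBayes with a trend) over 6 groups, two-sided, with Benjamini-Hochberg adjustment over all tested genes and a threshold of 0.05. The spread had 3 residual and 3.44 prior degrees of freedom, all from spleen, and lone lymph node arrays were assumed to vary alike. The labels do not say that arrays came from separate mice, so p-values measure only the spread between these samples. The small number of arrays limits the precision. The script was tested on simulated data. Spleen arrays of the same number deviated together from their group means (r = 0.412 to 0.529 between cell types), although the labels do not say what a number marks.

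The members and lists were chosen with earlier results of these data known. Named were the members, the 3 genes most like each, and list genes with the largest differences and no overlap between groups. Others were picked after their values were seen (Tbx21, Eomes, Lef1, Irf8, Itgam and Fgl2 pair values, Eif2s3y, and the single NK, dendritic cell, plasma cell and T cell markers). Alternatives covered normalization, offset, filter, probe sets, spread, samples, block, additive models and each spleen array left out.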

Additional observations from a re-analysis of the deposited data

Results flagged for a closer look

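The organ effect took opposite signs in CDC and in another cell type against both spleen arrays for 3 members. Zeb2 was higher in lymph node than in spleen CDC and lower in NK and IKDC, and the organ effect in NK minus that in CDC was -1.56 ± 0.47 SE (limma adjusted p = 0.859), and in IKDC minus CDC -0.59 ± 0.47 SE (0.999). This is the most intense of 5 Zeb2 probe sets: in IKDC, lymph node minus spleen was 0.31, 0.01 and 0.40 with 3 of the others, and in CDC it was -0.24 with 1454200_at. Prdm1 was higher in lymph node CDC and lower in lymph node IKDC (-2.18 ± 1.39 SE, limma adjusted p = 0.996). Lgals1 did the same (-2.05 ± 0.71 SE, limma adjusted p = 0.787), but its lymph node minus spleen IKDC value of -0.12 turned to 0.25 with its second probe set and 0.064 with the mean of both. None of these differences passed the test, which called 0 genes in either contrast, with 583 and 615 at an unadjusted p under 0.05.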

How the results depend on the processing

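No member was called in any comparison other than those with CDC under any alternative run, apart from lymph node minus spleen over the cell types, where an offset of 50 gave 1 in place of 0. Between spleen IKDC and CDC the mean of probe sets gave 3 in place of 4. Leaving out 1 spleen array at a time gave 3 to 5 members called between spleen IKDC and CDC, and 5 to 6 between spleen NK and CDC. With the replicate block on the spleen arrays 6 members were called in each of these comparisons and 0 between IKDC and NK, where the adjusted p was 0.333 for Klrg1 and Zeb2 and 0.429 for Prdm1. Counts over all genes moved more: between spleen IKDC and CDC they ran from 360 (without CDC array 2) to 1904 (replicate block) around 1129, between spleen NK and CDC from 515 to 2304 around 1475 under the same alternatives, and for lymph node minus spleen over the cell types from 0 (without NK array 1) to 151 (without IKDC array 1) around 41. For IKDC minus NK they ran from 0 to 33 in lymph node and 0 to 44 over both organs, and for lymph node minus spleen from 0 to 32 in CDC, 0 to 41 in IKDC and 0 to 3 in NK.

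Differences that changed sign had not been called. The Lgals1 difference of lymph node minus spleen NK was -0.41 without quantile normalization, -0.55 with a 75th percentile shift, -0.12 with the mean of probe sets and -0.26 with its second probe set, and its organ difference of IKDC minus NK was 0.17, 0.20, 0.19 and 0.51. In IKDC, lymph node minus spleen for Lgals1 was 0.064 with the mean of probe sets and 0.25 with the second. For Spn in CDC it was -0.068 with the mean and -0.37 with 1422133_at, and -0.13 over the cell types. Single Zeb2 probe sets gave lymph node IKDC minus NK values of 0.041 and 0.040 (1454200_at and 1458941_at), lymph node minus spleen IKDC values of 0.010, 0.40 and 0.31 (1454200_at, 1458941_at and 1434298_at), -0.24 in CDC (1454200_at), 0.16 over the cell types (1434298_at) and an organ difference of -0.21 (1456389_at). In additive models chosen after seeing the data, with the lymph node arrays and spleen arrays 1, Cd27 in IKDC minus NK was -0.095 and Prdm1 in lymph node minus spleen 0.34, and with spleen arrays 2 Spn in lymph node minus spleen was -0.10. The cause was not tested.

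With 1 spleen array left out, IKDC minus NK in spleen ran from -0.95 to 0.15 for Spn and from -0.39 to 1.00 for Cd27, which over both organs ran from -0.076 to 0.62. The organ difference of IKDC minus NK ran from -1.43 to 0.71 for Prdm1, -0.76 to 0.63 for Cd27 and -0.99 to 0.11 for Spn. Lymph node minus spleen ran from -0.17 to 0.42 for Klrg1 in CDC, and in NK from -0.025 to 0.76 for Spn, -1.68 to 0.036 for Prdm1 and -0.11 to 0.14 for Lgals1. For Spn it ran from -0.62 to 0.48 in IKDC and -0.0098 to 0.36 over the cell types, and for Prdm1 over the cell types from -0.69 to 0.023. Cd27 on the CDC arrays and Prdm1 on the spleen CDC arrays lay near background, which limits their folds.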
